A study of Mus musculus with 16 samples.

Results

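Ependymal cells line the central canal of the spinal cord and carry motile cilia, and 10 genes that mark these cells were followed here across the injured and uninjured cords of 1 study. The members were taken by symbol from a fixed list, with no threshold on their values: Foxj1, Ccdc153, Rsph1, Rsph4a, Tmem212, Dynlrb2, Cfap126, Pifo, Dnah12 and Spag17. Of the 24411 gene symbols in the files, 9 were members of this list. Dnah12, an inner arm dynein heavy chain, was not analysed here. The filter on low levels, a mean TPM (transcript level scaled for gene length and depth) above 1 in at least 1 of the 3 conditions, left 8 members for testing among 16091 genes, and Spag17 did not pass it.

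All 16 mice were female C57BL/6J. The 7 SCI + Atorvastatin mice and the 7 SCI + Vehicle mice had a 0.25 mm lateral compression of the thoracic cord at 12 wk of age. They were then given atorvastatin (10 mg/kg), a statin that lowers cholesterol, or its vehicle of dimethyl sulfoxide, polyethylene glycol, Tween and saline each day for 4 wk, beginning 2 wk post-injury. The 2 Uninjured Control mice had no injury and no treatment, and the labels give their age as 12 wk, whereas the study's methods give an older age at isolation. A 5 mm piece of cord around the lesion, or at the matching site, was taken, in the SCI mice 6 wk post-injury by the labels and slightly later by the methods. The SCI mice also had a laminectomy with anaesthesia, an antibiotic and pain relief, and the study names no sham surgery. Injury, surgery, the daily injections and age change together in any comparison with the Uninjured Control mice and cannot be told apart.

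A motile cilium beats because dynein arms slide the outer microtubule doublets of its axoneme against each other. Radial spokes and the central apparatus set the timing of the dyneins, and the nexin-dynein regulatory complex links neighbouring doublets. The forkhead factor FOXJ1 is the master regulator of the genes for these parts, and it acts with RFX factors, which bind a palindromic sequence named the X-box. In the spinal cord, Foxj1 marks ependymal cells, a population that can divide after injury and give rise to glial cells of the scar.

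Total counts on genes ranged from 14823292 to 25579826 over the 16 libraries. The Uninjured Control libraries held counts for 12356 and 12732 genes, and the SCI libraries for 16399 to 19338. Of 1644 genes that averaged 100 to 200 counts over the SCI libraries, 20.3% were at 0 in both Uninjured Control libraries, whereas the SCI library with most zeros lacked 0.912% of them. All 6 liver genes examined (Alb, Apoa1, Apoa2, Ahsg, Fgb and Hpd) had counts in both Uninjured Control mice, where their summed level was 642 and 4015 CPM (counts scaled to library size after TMM normalization), against at most 5.19 CPM in an SCI mouse, in which Hpd was at 0. The part of these liver transcripts and of the zeros in the results on cilia genes was not tested.

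The Uninjured Control mice had counts for 3 and 4 of the 9 members, and every SCI mouse for 8 or 9. Foxj1 and Rsph1 had counts in both Uninjured Control mice, Ccdc153, Cfap126 and Pifo in 1 of them, and Rsph4a, Tmem212, Dynlrb2 and Spag17 in neither. The members' summed level was 39.4 and 59.1 CPM in the Uninjured Control mice, 50.3 to 70.2 CPM with SCI + Vehicle and 57.4 to 74.1 CPM with SCI + Atorvastatin, so the groups overlapped. Foxj1 made up 79.1% and 67.6% of that sum in the Uninjured Control mice and between 20.2% and 58.8% in the SCI mice. In bulk tissue, fewer ciliated cells and less RNA per cell cannot be told apart. Nor can either be told here from the zeros that the Uninjured Control libraries held among genes of all kinds.

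**Figure D1:**
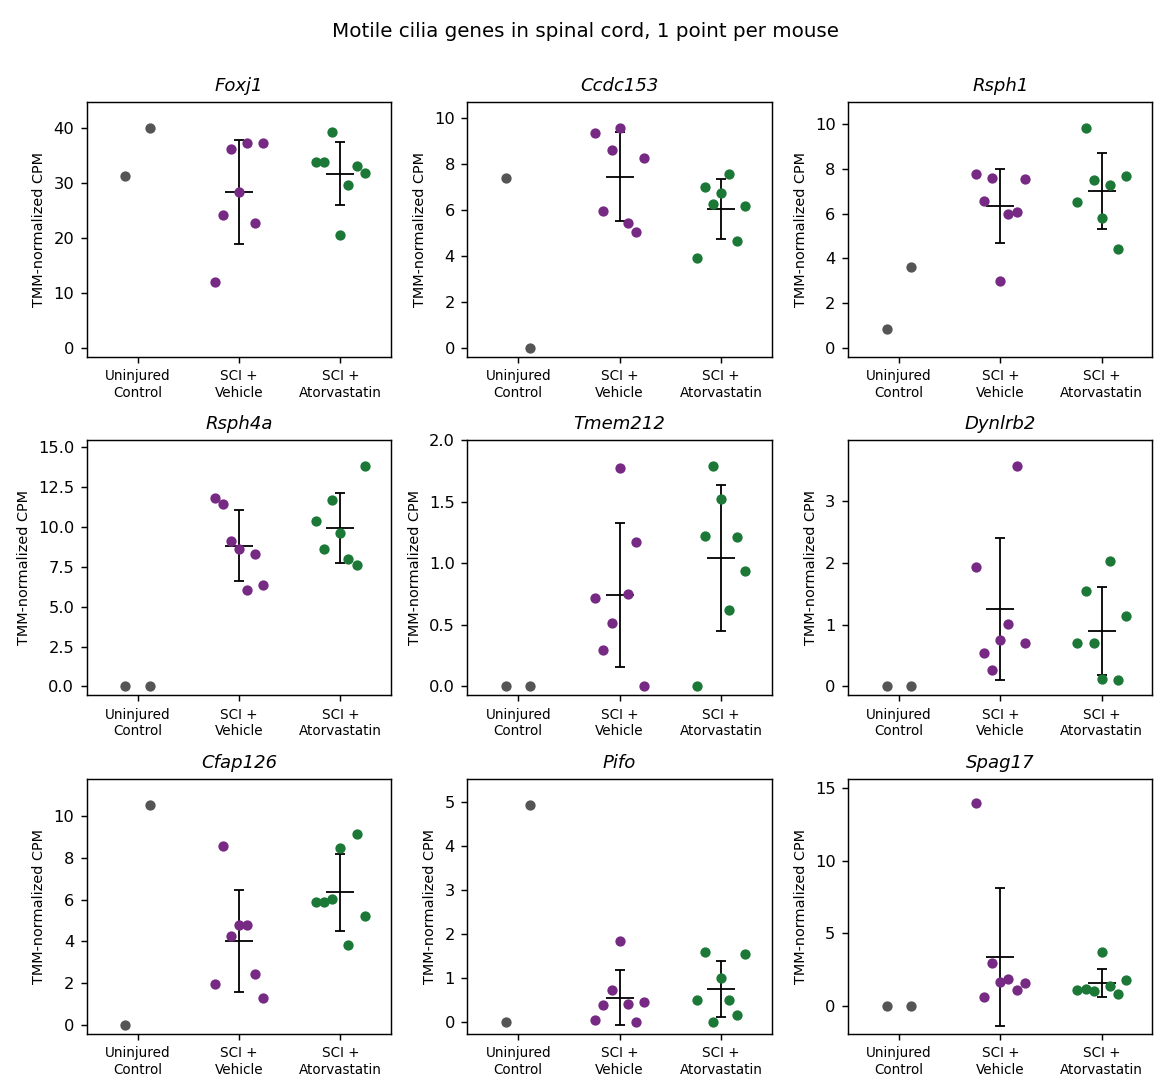
Level of the 9 members in each mouse, as TMM-normalized CPM (vertical axes, from below 0 to the highest value of each gene) in the Uninjured Control (grey), SCI + Vehicle (purple) and SCI + Atorvastatin (green) groups, with 1 point per mouse and, for the groups of 7, the mean (dash) and SD (bars). Foxj1 lies at 31.1 and 39.9 CPM in the Uninjured Control mice, within reach of both SCI groups, whereas Rsph4a, Tmem212, Dynlrb2 and Spag17 lie at 0 in both of them.

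Foxj1, on chromosome 11 of GRCm38 from 116330704 to 116335399 (minus strand), encodes the regulator itself. Its counts in the Uninjured Control mice were 619 and 880, with 286 to 845 in SCI + Vehicle and 497 to 822 in SCI + Atorvastatin. In CPM the Uninjured Control mice were at 31.1 and 39.9, SCI + Vehicle at 12.0 to 37.3 (median 28.2) and SCI + Atorvastatin at 20.5 to 39.1 (median 32.9). Uninjured Control replicate 1 lay within both SCI groups and replicate 2 above every SCI mouse. The mean level was 28.2 ± 9.45 CPM (SD, n = 7) with vehicle and 31.6 ± 5.71 CPM (SD, n = 7) with atorvastatin. Its log2 fold change was -0.34 (95% interval -1.15 to 0.47, adjusted p = 0.518 from edgeR) in SCI + Vehicle vs. Uninjured Control and -0.16 (-0.66 to 0.35, adjusted p = 0.621 from edgeR) in SCI + Atorvastatin vs. Uninjured Control. The sign of both differences depended on the scale, since on log2(TPM + 1) they were 0.0077 and 0.30, with adjusted p of 0.991 and 0.360 from limma.

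Rsph1 and Rsph4a encode proteins of the radial spoke head. Rsph1, on chromosome 17 from 31255019 to 31277383 (minus strand), was at 17 and 80 counts without injury, 44 to 185 (median 156) with SCI + Vehicle and 91 to 217 (median 159) with SCI + Atorvastatin. Uninjured Control replicate 2, which had the 80 counts, had a TPM of 0 for Rsph1, and replicate 1 a TPM of 2.08. The SCI mice were at a TPM of 7.5 to 22.0, all above both. In CPM, all 7 SCI + Atorvastatin mice and 6 of 7 SCI + Vehicle mice were above both Uninjured Control mice. Neither difference passed the threshold, on the log2 scale 1.49 with vehicle (standard error 0.67, adjusted p = 0.121 by edgeR) and 1.65 with atorvastatin (standard error 0.60, adjusted p = 0.0507 by edgeR). Without Uninjured Control replicate 2, both passed it, at adjusted p of 0.00525 and 0.000505 from edgeR, and so did both with DESeq2, at 0.0452 and 0.00900. An antisense transcript overlaps Rsph1, and the strand setting of the counting is not given in the sources used here.

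Rsph4a, on chromosome 10 from 33905111 to 33916021 (plus strand), had 0 counts in both Uninjured Control mice. It had 126 to 281 counts (median 199) with SCI + Vehicle and 156 to 339 (median 234) with SCI + Atorvastatin, so all 14 SCI mice were above both Uninjured Control mice. A count of 0 allows up to 3 counts in a library, and against that limit the Rsph4a mean was higher by at least 61.5-fold in SCI + Vehicle and at least 69.3-fold in SCI + Atorvastatin (adjusted p = 0.000126 and 3.22e-05 from edgeR). Such limits cover counting error only, because reads counted without molecular identifiers are not independent of each other. Rsph4a is 1 of 3245 genes that averaged 200 to 500 counts over the SCI libraries, of which 5.33% were at 0 in both Uninjured Control mice.

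Spag17, on chromosome 3 from 99885406 to 100143322 (plus strand), encodes a large protein of the central apparatus. It had 0 counts in both Uninjured Control mice, 14 to 332 (median 35) with SCI + Vehicle and 17 to 89 (median 26) with SCI + Atorvastatin. The highest value came from SCI + Vehicle replicate 1, and the next highest mouse of that group had 68 counts. Against the limit of 3 counts Spag17 was at least 23.4-fold higher with vehicle, or at least 11.1-fold without replicate 1. With atorvastatin it was at least 10.8-fold higher, or at least 8.34-fold without SCI + Atorvastatin replicate 4. Spag17 is 1 of 1238 genes that averaged 50 to 100 counts over the SCI libraries, of which 48.2% were at 0 in both Uninjured Control mice. Its mean TPM stayed below 1 in each condition. Against the Uninjured Control mice it was therefore tested only where no filter was applied, with adjusted p of 0.0144 and 0.00210 from edgeR. The gene overlaps Wdr3, the antisense gene Spag17os and a pseudogene on the other strand, and a pseudogene on its own strand. Reads of Spag17 and of the genes on the other strand cannot be told apart without a known strand setting.

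Dynlrb2, on chromosome 8 from 116504974 to 116515915 (plus strand), encodes a roadblock light chain of dynein. It had 0 counts in both Uninjured Control mice, 6 to 85 (median 16) with SCI + Vehicle and 2 to 52 (median 17) with SCI + Atorvastatin. All 14 SCI mice were above both Uninjured Control mice, although the lowest, with 2 counts, was within the 3 counts that a 0 allows. The mean was higher by at least 8.73-fold in SCI + Vehicle and at least 6.29-fold in SCI + Atorvastatin (adjusted p = 0.0166 and 0.0209 from edgeR). Without SCI + Vehicle replicate 6 the first value was 6.05-fold, and without SCI + Atorvastatin replicate 5 the second was 4.99-fold. On log2(TPM + 1) neither call was made (adjusted p = 0.0735 and 0.133 from limma). Dynlrb2 is 1 of 2560 genes that averaged 10 to 50 counts over the SCI libraries, of which 76.8% were at 0 in both Uninjured Control mice. Its paralog Dynlrb1, a light chain used throughout the cell, moved the other way, with log2 fold changes of -1.03 (standard error 0.24, adjusted p = 0.00997 from edgeR) and -1.15 (standard error 0.20, adjusted p = 0.00140 from edgeR).

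Ccdc153, a coiled-coil protein used as an ependymal marker, lies on chromosome 9 from 44240676 to 44247306 (plus strand). Uninjured Control replicates 1 and 2 had 147 and 0 counts, against 120 to 222 (median 141) with SCI + Vehicle and 95 to 194 (median 151) with SCI + Atorvastatin. The SCI mice lay close to Uninjured Control replicate 1 and far above replicate 2. The log2 fold changes were 0.99 (95% interval -1.68 to 3.66) and 0.71 (-1.93 to 3.35), with adjusted p of 0.577 and 0.676 from edgeR. A fit with 1 control takes that mouse to vary as the SCI mice do. With Uninjured Control replicate 2 as the only control the adjusted p from edgeR was 2.59e-05 and 6.31e-06, and with replicate 1 as the only control it was 1.00 and 0.566.

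Cfap126, which encodes the axonemal protein Flattop, lies on chromosome 1 from 171113918 to 171126967 (plus strand). Uninjured Control replicates 1 and 2 had 0 and 232 counts, against 29 to 204 (median 70) with SCI + Vehicle and 99 to 206 (median 130) with SCI + Atorvastatin. In CPM, every SCI mouse lay between the Uninjured Control mice. The log2 fold changes were -0.40 (95% interval -3.21 to 2.40) and 0.28 (-2.35 to 2.91), with adjusted p of 0.847 and 0.882 from edgeR. Without Uninjured Control replicate 2 the adjusted p was 0.00288 and 1.40e-05 from edgeR, with the SCI mice higher, and without replicate 1 the log2 fold changes were -1.40 and -0.72.

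Pifo, on chromosome 3 from 105996957 to 106014646 (minus strand), encodes Pitchfork, a ciliary protein. Here Uninjured Control replicates 1 and 2 had 0 and 109 counts, against 0 to 27 (median 9) with SCI + Vehicle and 0 to 38 (median 13) with SCI + Atorvastatin. In CPM, Uninjured Control replicate 2 had the highest level of the 16 mice, but its TPM for Pifo was 0. Replicate 1 and 1 mouse of each SCI group had 0 counts. An antisense gene and an intronic transcript overlap Pifo, and without a known strand setting reads of Pifo and the antisense gene cannot be told apart. The log2 fold changes were -2.19 (95% interval -5.71 to 1.32) and -1.70 (-4.95 to 1.55), with adjusted p of 0.330 and 0.393 from edgeR. Their sign turned on log2(TPM + 1), to 0.95 and 0.93, and it turned without Uninjured Control replicate 2, to 6.57 and 7.11 against a control at 0.

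Tmem212, on chromosome 3 from 27866066 to 27896368 (minus strand), encodes a membrane protein used as an ependymal marker. It had 0 counts in both Uninjured Control mice, 0 to 28 (median 17) with SCI + Vehicle and 0 to 37 (median 25) with SCI + Atorvastatin, and 1 mouse of each SCI group was at 0. Its mean exceeded the limit that 3 counts set at least 5.20-fold in SCI + Vehicle and at least 7.28-fold in SCI + Atorvastatin. Without SCI + Vehicle replicate 4 the first value was 4-fold, and without SCI + Atorvastatin replicate 3 the second was 6.41-fold. With all mice the adjusted p was 0.0558 with vehicle and 0.0263 with atorvastatin from edgeR. Without SCI + Vehicle replicate 7, the mouse of that group at 0, it was 0.0155 with vehicle. Tmem212 is also 1 of the 2560 genes that averaged 10 to 50 counts over the SCI libraries, of which 76.8% were at 0 in both Uninjured Control mice.

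Reference sequence upstream of the members was searched for the motifs of the 2 factor families. RefSeq's table for GRCm38.p6 held windows of 300 bases around a start site for 7 of the 10 members, 10 windows in all, and none for Foxj1, Rsph1 or Rsph4a. The forkhead core TGTTTAC was in 0 of 10, on either strand, and in 3.65% of all 32817 windows. The X-box arm GTTGCCA was in 1 of 10 and in 4.38% of all. A pair of arms, GTTNCC followed after 0 to 3 bases by GGNAAC, was in 1 of 10 and in 0.804% of all, and both of these matches lie, overlapping, in the same Pifo window. The pair runs from -20 to -7 relative to the start of a shorter Pifo transcript and is in capitals in the first sequence. The 2 called members with a window, Dynlrb2 and Tmem212, are shown beside it as examples without a match to these exact letters. Variants of the forkhead core and of the X-box arms were not searched, so the windows may hold other sites of either kind. Each sequence runs 5′ to 3′ on the strand of the gene, and a match in these letters is no measurement of binding. Those of Pifo and Tmem212 end at the base before the start site of the window. That of Dynlrb2 was cut where an exon of the gene begins, so it has 209 bases and ends short of the window's start site.
Pifo, chr3:106001498-106001747 (-): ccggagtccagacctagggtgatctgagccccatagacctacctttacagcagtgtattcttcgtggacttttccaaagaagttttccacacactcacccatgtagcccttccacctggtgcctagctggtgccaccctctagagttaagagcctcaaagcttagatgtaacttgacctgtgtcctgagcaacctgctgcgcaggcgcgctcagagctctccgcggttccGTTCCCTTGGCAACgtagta
Dynlrb2, chr8:116504765-116504973 (+): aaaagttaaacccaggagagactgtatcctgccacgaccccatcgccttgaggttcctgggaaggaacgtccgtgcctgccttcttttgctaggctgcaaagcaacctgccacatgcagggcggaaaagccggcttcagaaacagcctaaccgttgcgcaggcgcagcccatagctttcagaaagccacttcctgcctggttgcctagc
Tmem212, chr3:27896369-27896618 (-): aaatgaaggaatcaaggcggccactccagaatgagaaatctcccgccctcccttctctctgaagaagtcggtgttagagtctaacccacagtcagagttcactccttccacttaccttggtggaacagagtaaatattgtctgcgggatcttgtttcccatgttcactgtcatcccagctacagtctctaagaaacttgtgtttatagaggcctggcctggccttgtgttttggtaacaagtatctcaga

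Counted together, 2 of the 8 members tested, Rsph4a and Dynlrb2, were called higher in SCI + Vehicle vs. Uninjured Control, where 19.8% of all genes tested were called higher, and 0 were called lower, where 9.55% of all genes were (29.4% in either direction). A call needed an adjusted p below 0.05 and a change of over 25%. In SCI + Atorvastatin vs. Uninjured Control, 3 of 8, Rsph4a, Dynlrb2 and Tmem212, were called higher, against 24.9% of all genes, and 0 lower, against 14% of all genes (38.9% in either direction). Every SCI mouse was above both Uninjured Control mice in 2 and 3 of the 8 members, against 24.8% and 29.8% of all genes. The median log2 fold change of the 8 members was 1.24 and 1.18, and that of all genes tested was 0.17 and 0.21, but the members' value rests on 3 genes at 0 in both Uninjured Control mice, which passed the filter through the SCI groups alone. The 3 members at 0 in 1 Uninjured Control mouse had medians of -0.41 and 0.28, and the 2 with counts in both had medians of 0.57 and 0.75. Because the 2 Uninjured Control mice serve both comparisons, these are not independent of each other.

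All calls made by edgeR on all mice were of members at 0 in both Uninjured Control mice. Of the 3 tested members at 0 in both, 2 and 3 were called, as were 68.4% and 78.3% of the 2433 genes of all kinds at 0 in both. Of the 3 members at 0 in 1 Uninjured Control mouse and the 2 with counts in both, 0 were called in either comparison. Among the 11126 genes with counts in both, 12.0% and 16.7% were called higher. Voom with weights by group, which gives the Uninjured Control mice a spread of their own, called 0 members in either comparison, with adjusted p from 0.458 to 0.986 from limma, but it called only 0.82% and 0.901% of all genes. Where a mean TPM above 1 was asked of every condition, 4 members were tested and edgeR called 0 of them in either comparison.

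**Figure D2:**
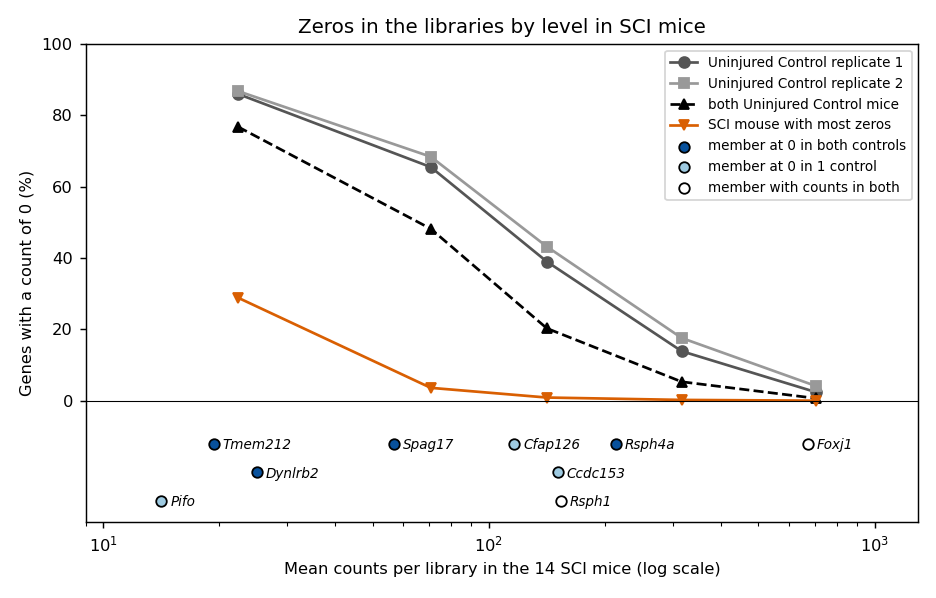
Share of genes with a count of 0 (vertical axis, %) against the mean counts per library in the 14 SCI mice (horizontal axis, log scale, 5 bins from 10 to 1000 counts), for each Uninjured Control mouse, for both at once and for the SCI mouse with most zeros. The members are marked below the axis at their own mean counts, filled dark where both Uninjured Control mice were at 0, light where 1 was and white where neither was. The share at 0 in both Uninjured Control mice falls from 76.8% in the lowest bin to 0.676% in the highest, and Foxj1, the member with most counts, lies in the highest bin.

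The wider set of motile cilia genes, 74 genes chosen by function with the members left out, was divided in a like way. Between 67 and 73 of them had counts in each SCI mouse, against 30 and 37 in the Uninjured Control mice. Of the 61 tested, 23 were called higher and 3 lower with vehicle, and 27 higher and 4 lower with atorvastatin. Over all genes tested, 19.8% and 24.9% were called higher and 9.55% and 14% lower, and calls of the smaller groups below stand beside the same shares. The median log2 fold change of the 61 was 1.64 and 1.58, and that of all genes tested was 0.17 and 0.21. This median rests in part on 19 genes at 0 in both Uninjured Control mice, which passed the filter through the SCI groups alone. They made up 31.1% of the 61, against 15.1% of all genes tested. Of the 19 at 0 in both Uninjured Control mice, 18 and 19 were called higher, as were 68.4% and 78.3% of all genes at 0 in both. Of the 23 with counts in both, 4 and 6 were called higher and 3 and 4 lower, with a median of 0.23 and 0.28. Of all genes with counts in both, 12.0% and 16.7% were called higher and 13.3% and 19.3% lower.

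**Figure D3:**
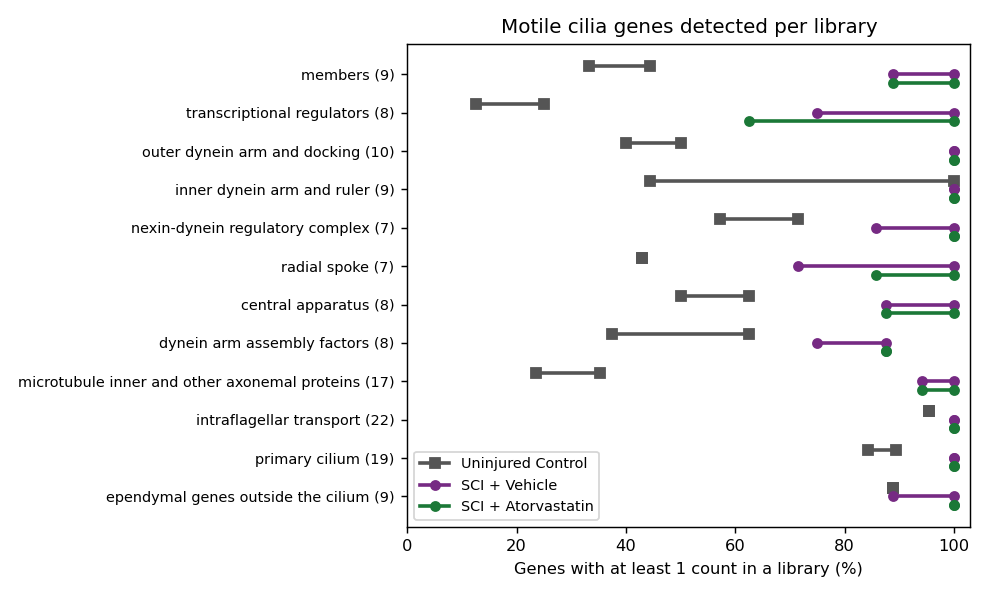
Share of the genes of each functional group that had at least 1 count in a library (horizontal axis, %), from the lowest to the highest mouse of the Uninjured Control (grey), SCI + Vehicle (purple) and SCI + Atorvastatin (green) groups, with the number of genes in brackets. Among the groups drawn, the Uninjured Control mice had counts for as few as 1 and 2 of 8 transcriptional regulators and 4 and 6 of 17 microtubule inner proteins, whereas 21 of 22 intraflagellar transport genes had counts in each Uninjured Control mouse.

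Counts of genes outside the list of members are given for the Uninjured Control mice from the lower to the higher. Among the transcriptional regulators of the motile cilium, Rfx3 was at 393 and 1082 counts without injury, with 741 to 1051 in the SCI mice, and was not called (log2 fold change 0.22 and 0.32, adjusted p = 0.619 and 0.396 from edgeR). Rfx2 had 0 and 109 counts against 84 to 304, and was not called (adjusted p = 0.342 and 0.215 from edgeR). Myb, which acts early in the making of multiple cilia, was at 0 in both Uninjured Control mice and had 37 to 228 counts in the SCI mice, at least 33.1-fold and 30.1-fold higher (adjusted p = 0.000896 and 0.000576 from edgeR). Gmnc, Mcidas, Trp73, Ccno and Ccdc67, which also act early in that process, were at 0 in both Uninjured Control mice and had at most 60 counts in an SCI mouse. None of these 5 passed the filter, and they were named after their values were seen.

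The dynein arms were mixed. Of 9 genes tested for the outer arm and its docking complex, 4 were called higher in each comparison and 0 lower. Ccdc114, a docking complex protein, was at 0 in both Uninjured Control mice and had 104 to 390 counts in the SCI mice. Dnah11, an outer arm heavy chain, was also at 0 in both and was at 3.55 to 14.7 CPM in the SCI mice. Dnal1, an outer arm light chain, was at 683 and 955 counts without injury and 538 to 1150 in the SCI mice, with log2 fold changes of 0.12 and 0.07 and no call. Of 7 inner arm and ruler genes tested, only Dnah7b was called, with 176 and 233 counts in the Uninjured Control mice against 605 to 1232 (log2 fold change 2.02, standard error 0.22, and 2.21, standard error 0.18, adjusted p = 0.000144 and 2.89e-05 from edgeR). Dnah7b has near-identical copies, so its counts are uncertain.

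Radial spoke genes other than the members moved in both directions. All 5 tested were called in each comparison, 3 higher and 2 lower. Rsph9, a spoke head protein like Rsph1 and Rsph4a, was at 285 and 382 counts without injury and 79 to 219 in the SCI mice, with log2 fold changes of -1.52 (standard error 0.40, adjusted p = 0.0155 from edgeR) and -1.23 (standard error 0.39, adjusted p = 0.0306 from edgeR). Rsph3a was higher and Rsph3b lower in both comparisons, and since they are near-identical copies whose reads can be split between them, both values are uncertain. Of the 7 central apparatus genes tested, Spag16 was called higher in both comparisons and, with atorvastatin, Cfap74 higher and Spag6 lower.

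Gas8, of the nexin-dynein regulatory complex, was at 317 and 392 counts without injury and 370 to 1048 in the SCI mice, and was called higher (log2 fold change 1.06 and 0.98, adjusted p = 0.00815 and 0.00464 from edgeR). Of the 17 microtubule inner and other axonemal genes, 9 were called higher with vehicle and 11 with atorvastatin. Cfap43 had the smallest p among them, with 0 counts in both Uninjured Control mice and 197 to 313 in the SCI mice, at least 74.6-fold and 79.4-fold higher. Tppp3, which is also expressed outside ciliated cells, was the 1 gene called lower, with log2 fold changes of -1.11 and -1.28 (adjusted p = 0.00189 and 2.89e-05 from edgeR). Of the 7 dynein arm assembly factors tested, 2 and 3 were called higher, Dyx1c1 with the smallest p, and 0 lower.

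Genes that ciliated cells share with other cells had medians nearer to 0 than the 61 motile cilia genes, but not nearer in each case than the 23 of those with counts in both Uninjured Control mice. Of 22 intraflagellar transport genes, which build every kind of cilium, 4 were called higher and 2 lower with vehicle and 5 higher and 2 lower with atorvastatin, with a median log2 fold change of 0.02 and 0.04. Of 19 primary cilium genes, 4 were called higher and 0 lower in each comparison, with a median of 0.27 and 0.31. Over all genes tested the shares called higher were 19.8% and 24.9%, and those called lower 9.55% and 14%. Of 9 ependymal genes outside the cilium, such as Vim, an intermediate filament gene that reactive astrocytes also express, 3 were called higher with vehicle and 4 with atorvastatin, and 0 and 1 lower. All 6 markers of airway epithelium, another tissue with motile cilia, were below the filter, with a summed level of at most 17 CPM in an SCI mouse and 0 and 2.81 CPM in the Uninjured Control mice.

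Markers of other cells moved with the same comparisons. Choroid plexus epithelium, which carries cilia and expresses Foxj1, had 7 markers with a summed level of 36.7 and 216 CPM in the Uninjured Control mice and 6.55 to 22.8 CPM in the SCI mice. The Uninjured Control mice had counts for only 2 and 3 of the 7, and Ttr, the transthyretin gene, which liver also makes, had 538 and 4101 counts there and at most 17 in an SCI mouse. Of the 6 tested, Ttr was called lower in each comparison, Kcnj13 higher in each, and Clic6 and Folr1 higher with atorvastatin, the last 3 genes being at 0 in both Uninjured Control mice. Of 7 astrocyte markers 4 were called higher in each comparison, and of 8 microglia or macrophage markers 5 and 6 were called higher. Of 8 neuron markers 5 and 6 were called lower. The shares of all genes were 19.8% and 24.9% called higher and 9.55% and 14% called lower. The part of these other cells in the results on cilia genes was not tested.

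The study's second question was what atorvastatin changed in the injured cord. No difference between the treatments was found for the members: 0 of 8 were called at an unadjusted p below 0.001, where 0.106% of all genes were (0.087% higher and 0.0186% lower with atorvastatin), 0 of 8 had an unadjusted p below 0.05, where 7.03% of all genes did, and the smallest adjusted p was 0.733 from edgeR, for Cfap126. The treatment groups overlapped in all 9 members. The 61 other motile cilia genes tested gave 0 calls, 1 unadjusted p below 0.05 and a median log2 fold change of -0.03, against -0.0014 over all genes. DESeq2, limma on log2(TPM + 1) and voom with weights by group, which called 37, 20 and 8 of all genes, also called 0 members.

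Cfap126 had the largest difference of the members tested, at 6.35 ± 1.85 CPM (SD, n = 7) with atorvastatin and 4.01 ± 2.46 CPM (SD, n = 7) with vehicle. Its log2 fold change was 0.66 (95% interval -0.06 to 1.38, adjusted p = 0.733 by edgeR), with 6 of 7 SCI + Atorvastatin mice higher than the SCI + Vehicle median. Its unadjusted p, 0.0705 with edgeR, was 0.0407 with limma on log2(TPM + 1), 0.0457 with limma on log2(TPM + 0.1), 0.0267 with voom and, with edgeR, 0.0483 without SCI + Atorvastatin replicate 5 and 0.00875 without SCI + Vehicle replicate 2, whereas the smallest adjusted p of these was 0.453. For Ccdc153 the difference was -0.30 (-0.76 to 0.16), with 0 of 7 SCI + Atorvastatin mice higher than the SCI + Vehicle median. Foxj1, Rsph1 and Rsph4a had log2 fold changes of 0.16 (95% interval -0.24 to 0.57), 0.14 (-0.34 to 0.62) and 0.17 (-0.23 to 0.58). For these 3 genes the intervals leave out a change of 1 or more on the log2 scale in either direction. For Tmem212, Dynlrb2 and Pifo, which had few counts and varied by 57.0% to 114% (coefficient of variation) within the SCI groups, the intervals reached from -1.96 to 2.45, and a change within them could not be told from none.

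**Figure D4:**
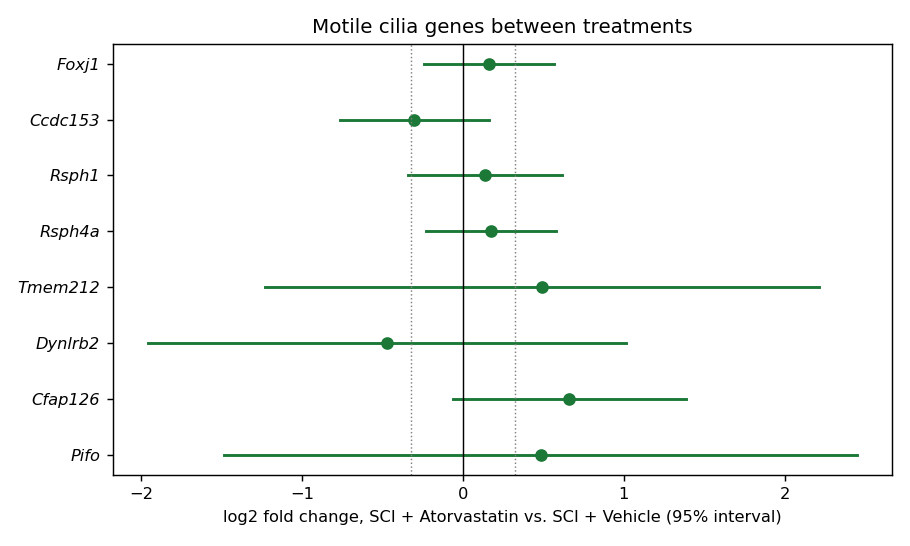
Log2 fold change of the 8 members tested in SCI + Atorvastatin vs. SCI + Vehicle (horizontal axis, points) with the 95% interval from edgeR (lines), the value of no change (solid vertical line) and the threshold of 0.322 in either direction (dotted lines). All 8 intervals include 0, and those of Tmem212, Dynlrb2 and Pifo are the widest.

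Compared per gene length, over the 14 SCI mice, the mean TPM was 29.8 for Foxj1, 15.5 for Rsph1, 13.3 for Ccdc153, 13.2 for Cfap126, 6.22 for Rsph4a, 5.52 for Dynlrb2, 2.71 for Tmem212, 1.46 for Pifo and 0.504 for Spag17. Neighbours in this order were compared within mice by an exact two-sided paired permutation test, in 8 comparisons with Benjamini-Hochberg adjustment. The order, and with it the pairs, came from the same values. The p-values therefore describe these 14 mice and do not test an order set beforehand. Foxj1 was above Rsph1 in 13 of 14 mice (adjusted exact p = 0.00293), and Cfap126 was above Rsph4a in 11 of 14 mice (adjusted exact p = 0.00781). The other 6 neighbouring pairs did not differ beyond their spread (adjusted exact p from 0.225 to 0.968). The low levels are less certain than the order implies, since 4 member values in the SCI mice had a TPM of 0 with 12 to 17 counts. Over all 16 mice a TPM of 0 was found in 4.96% of member values with at least 10 counts and in 4.58% of such values of all genes.

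The members varied among mice of 1 group by more than their counts alone would give. The coefficient of variation within a group was 2.55 to 12.0 times that of counting error over the 9 members and both SCI groups. It ran from 18.1%, for Foxj1 in SCI + Atorvastatin, to 141%, for Spag17 in SCI + Vehicle, and was 33.4% for Foxj1 in SCI + Vehicle. SCI + Vehicle replicate 1 had the lowest Foxj1 level of the SCI mice, 12.0 CPM, together with the highest Spag17 level, 13.97 CPM, and had the highest level of the SCI mice in 5 of 9 dynein heavy chain genes. The same mouse had the most genes with counts, 19338, and the highest summed level of airway epithelium markers, 17 CPM against a group median of 2.89 CPM. The part of these in its values was not tested.

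Correlations were computed between the members over the 14 SCI mice after each group's mean was taken out, and they share libraries and depth. The 36 pairs of members had a median Pearson r of 0.028, with 21 above 0 and 15 below. The highest was 0.533, for Ccdc153 with Spag17, and the lowest was -0.619, for Foxj1 with Spag17. Pairs of the 61 other motile cilia genes had a median of 0.097.

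**Figure D5:**
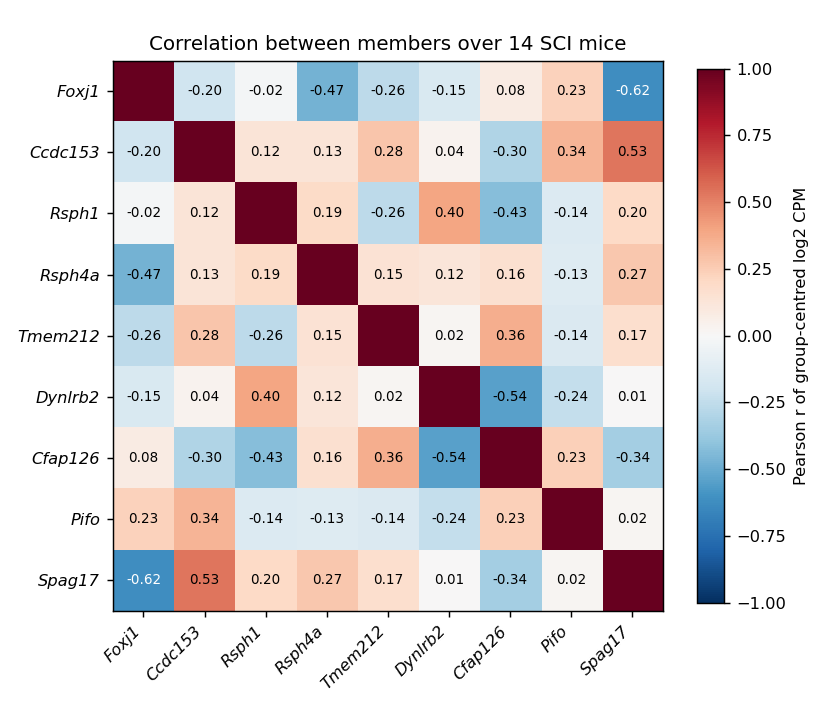
Pearson r of group-centred log2 CPM between each pair of the 9 members over the 14 SCI mice (both axes list the members, and the colour runs from -1 in blue to 1 in red). Positive and negative values are mixed, from -0.62 for Foxj1 with Spag17 to 0.53 for Ccdc153 with Spag17.

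Foxj1 was tested against the other 8 members, and 0 of the 8 relations passed a permutation test with Benjamini-Hochberg adjustment. The relation nearest to it was with Spag17 (Pearson r = -0.619, permutation p = 0.0694, adjusted p = 0.481 by permutation, Spearman rho = -0.143, permutation p = 0.655). Without the 2 mice farthest from the median of Foxj1, SCI + Vehicle replicate 1 and SCI + Atorvastatin replicate 4, r was 0.512, so the negative value rested on those mice. With Rsph4a, r was -0.474 (permutation p = 0.12, adjusted p = 0.481 by permutation), 0.165 within SCI + Atorvastatin and -0.757 within SCI + Vehicle.

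The mean profile of the 8 tested members over the same 14 mice was closest to that of Igfbp7, Apobec2, Itgb1bp2, Mzt2, Sema3c, Fstl1, Slc35a5, Casq2, Lctl and Mcur1, with r from 0.864 to 0.771, the highest of 16091 genes. No motile cilia gene was among these 10. Each of the 8 members is itself part of this profile, which raises its r with it. These r were 0.080 for Foxj1 and at most 0.527, for Ccdc153. The other motile cilia genes, which are not part of the profile, had a median of 0.046, the highest being Nme5 at 0.628. The members' values cannot be set against theirs for that reason. These values are descriptions of 14 mice, and no test was made of them.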

How the data were processed

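RNA was measured in spinal cord of 16 mice by a stranded total RNA kit with random priming. The deposited tables hold whole-number counts and, separately, the authors' TPM for each gene. Per the labels, FastQC 0.12.1, Trimmomatic 0.38, STAR 2.5.4b and RSEM 1.3.1 were used with mm10. The step that made whole counts, and its strand setting, are not given in the sources used here. There were 81 genes with a mean TPM above 5 and no counts, so the 2 tables can differ for a gene.

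Genes were kept if their mean TPM exceeded 1 in any of the 3 conditions. Each comparison was fitted across them in edgeR 4.0.16 (R 4.3.3) by the quasi-likelihood test with TMM normalization and Benjamini-Hochberg adjustment, using the 2 groups compared. Against the Uninjured Control mice, a call needed an adjusted p below 0.05 and a change of over 25% (0.322 on the log2 scale). Between treatments it needed an unadjusted p below 0.001 and the same change. Alternatives used DESeq2 1.42.0, limma 3.58.1 on log2(TPM + 1) and log2(TPM + 0.1), voom with weights by group, DESeq2 size factors, other filters, all 3 groups in 1 fit, the replicate number as a block, and each mouse left out in turn. Correlations and permutation tests (100000 resamples, or exact) were made in Python 3.11.15 with scipy 1.17.1. The fitting script was tested on simulated data. Intervals are 95% intervals.

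The members, the gene lists and the tests were chosen with earlier results of these data known. Beside the members, genes were named by a rule applied to these same values. For each motile cilia list these were the 3 genes of highest mean TPM and the called gene of smallest p per direction. Also named were the leading gene of each other list by mean TPM and the 10 genes of most similar profile. Further genes were chosen after their values were seen, among them Gmnc, Mcidas, Trp73, Ccno and Ccdc67. The replicates are separate mice.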

Additional observations from a re-analysis of the deposited data

Results flagged for a closer look

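Among the 18 sets of 7 mice examined (9 members in each SCI group), 4 held a mouse far from the other 6 by Dixon's test. Chance alone marks about 1 in 20 such sets where values are normal and sets independent. The 18 sets share the same mice and several hold low counts, so 4 of 18 cannot be set against that rate. Rsph1 was lowest in SCI + Vehicle replicate 4, at 3.00 CPM (44 counts), and the next lowest mouse was at 5.99 CPM. The same mouse had the highest Pifo level of its group, 1.84 CPM (27 counts), with the next at 0.732 CPM. Spag17 was highest in SCI + Vehicle replicate 1, at 13.97 CPM (332 counts), with the next mouse at 2.93 CPM, and in SCI + Atorvastatin replicate 4, at 3.67 CPM (89 counts), with the next at 1.79 CPM.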

How the results depend on the processing

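The number of members called in SCI + Vehicle vs. Uninjured Control, 2 with edgeR, was 4 with DESeq2 and with all 3 groups in 1 fit, and 0 with voom, where each condition needed a mean TPM above 1 (4 members tested) and where each mouse needed 10 counts (2 tested). In SCI + Atorvastatin vs. Uninjured Control it was 3, and 0 with voom, 0 where each condition needed a mean TPM above 1 and 1, Rsph1, where each mouse needed 10 counts. With 1 mouse left out it ranged from 2 to 4 and from 3 to 5, and was highest without Uninjured Control replicate 2. Between the treatments it was 0 under every alternative run. Other motile cilia genes called, 26 and 31, numbered 0 and 1 with voom, 6 and 7 where each condition needed a mean TPM above 1 and 7 and 10 where each mouse needed 10 counts.

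Some log2 fold changes turned sign, none of them called by edgeR on all mice. On log2(TPM + 1) and log2(TPM + 0.1), those with vehicle were 0.0077 and 0.0035 for Foxj1, 0.57 and 2.02 for Cfap126, and 0.95 and 2.75 for Pifo. Those with atorvastatin were 0.30 and 0.31 for Foxj1 and 0.93 and 2.47 for Pifo, and between treatments Pifo was at -0.016 and -0.28. On log2(TPM + 1) the median of all genes was also higher, 0.49 and 0.52 against 0.17 and 0.21. With voom, Cfap126 was at 2.57 with vehicle and Pifo at 0.26 with atorvastatin. With 1 mouse left out, values with vehicle ranged from -0.0068 to 10.36 for Ccdc153, -1.40 to 9.45 for Cfap126 and -3.20 to 6.57 for Pifo. With atorvastatin they ranged from -0.32 to 0.025 for Foxj1, -0.29 to 10.12 for Ccdc153, -0.72 to 10.17 for Cfap126 and -2.69 to 7.11 for Pifo. Between treatments Dynlrb2 ranged from -0.80 to 0.043, the highest without SCI + Vehicle replicate 6. The cause was not tested.

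The SCI groups share replicate numbers with each other and with the Uninjured Control mice, but nothing in the labels ties mice of 1 number together. The correlation of same-numbered SCI mice ran from -0.138 to 0.0784, and no mouse correlated best with its own number. With the replicate number as a block, 0 members and 0 other motile cilia genes were called in either comparison with the Uninjured Control mice, and 0 members between treatments, with Cfap126 at 2.85 with vehicle and Pifo at 1.36 with atorvastatin. Between treatments Cfap126 had an unadjusted p of 0.0343 and an adjusted p of 0.870 from edgeR with the block.

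Over all genes, 4726 calls with vehicle became 6000 with DESeq2, 6586 with all 3 groups in 1 fit, 132 with voom and 16 with the block, and 6260 calls with atorvastatin became 145 with voom and 0 with the block. The share of calls that were higher, 67.5% and 64.0%, was 84.5% and 80.4% on log2(TPM + 1), 52.6% and 47.8% where each condition needed a mean TPM above 1, and 46.5% and 46.3% where each mouse needed 10 counts. There are only 2 Uninjured Control mice, and their zeros limit every comparison with them for genes averaging up to 500 counts over the SCI mice, of which 5.33% to 76.8% per class of counts were at 0 in both.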
